A study of Homo sapiens with 8 samples.

Results

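MHC class I molecules carry peptides from inside the cell to its surface, and 9 genes of this machinery were followed here: the heavy chain genes HLA-B, HLA-C, HLA-E and HLA-F, the light chain gene B2M, the peptide transporter genes TAP1 and TAP2, the tapasin gene TAPBP and the trimming peptidase gene ERAP1. They were chosen by name. All 9 were among the 11818 genes of the table, and all 9 passed the filter on low values that left 11812 genes for testing. The cells were HCCLM3, an established human hepatocellular carcinoma line of high metastatic capacity. In the 4 siRNA libraries circPTK2, a circular transcript of the PTK2 gene, was knocked down according to the labels, by an siRNA transfected transiently. The 4 NC libraries have the genotype WT. The labels do not say whether NC cells received a control siRNA, nor whether the libraries within a group are separate cultures. The p-values therefore measure a spread between libraries that may be technical only. The aim given for the series is the effect of the silencing on downstream signalling.

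A class I molecule is a polymorphic heavy chain paired with beta-2-microglobulin and a short peptide. Peptides made by proteasomes enter the endoplasmic reticulum through the TAP1-TAP2 transporter, are trimmed by ERAP1, and are loaded onto the heavy chain in a complex held together by tapasin, with calreticulin and the disulfide isomerase PDIA3. The complex of heavy chain and peptide is read by CD8+ T cells, and class I molecules also inhibit natural killer cells. Interferons induce most of these genes through IRF and STAT factors, and the factor NLRC5 acts at the conserved promoter module of the class I genes. Loss of class I expression is a known route of immune escape in tumours, hepatocellular carcinoma included.

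The promoters are shown because the genes below moved in different directions and class I promoters are known for a shared set of elements. Promoters from RefSeq (GRCh38.p14) were used for 8 of the 9 genes, all but HLA-E, and each sequence below is the 200 bases that end just before the gene start, 5′ to 3′ on the strand of the gene. Capitals mark matches, on either strand, to the IRF core AANNGAAA, to the NF-kB pattern (GGG and CC with 5 bases between them), to TGACGC (the core of the CRE-like X2 box) and to CCAAT, and overlapping matches run together. The regions are chr6:31357180-31357379, chr6:31272093-31272292, chr6:32853705-32853904 and chr6:33314079-33314278 on the minus strand, and chr6:29723234-29723433 and chr15:44711317-44711516 on the plus strand.
HLA-B: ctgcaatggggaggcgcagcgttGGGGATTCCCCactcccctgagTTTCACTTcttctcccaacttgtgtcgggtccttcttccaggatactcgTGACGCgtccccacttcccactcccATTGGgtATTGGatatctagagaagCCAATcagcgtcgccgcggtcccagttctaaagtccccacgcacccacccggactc
HLA-C: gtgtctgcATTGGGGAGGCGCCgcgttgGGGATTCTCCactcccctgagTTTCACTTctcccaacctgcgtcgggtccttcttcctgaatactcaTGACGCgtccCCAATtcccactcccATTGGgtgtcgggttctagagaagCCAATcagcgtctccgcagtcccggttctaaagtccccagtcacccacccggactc
HLA-F: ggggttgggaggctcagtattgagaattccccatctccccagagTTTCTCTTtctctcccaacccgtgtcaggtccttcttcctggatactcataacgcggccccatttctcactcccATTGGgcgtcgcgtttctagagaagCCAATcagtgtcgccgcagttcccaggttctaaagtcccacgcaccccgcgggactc
B2M: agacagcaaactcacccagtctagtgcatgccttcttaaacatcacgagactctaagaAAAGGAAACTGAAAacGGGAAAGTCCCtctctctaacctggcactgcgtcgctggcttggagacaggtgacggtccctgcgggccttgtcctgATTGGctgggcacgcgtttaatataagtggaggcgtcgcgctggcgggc
TAP1: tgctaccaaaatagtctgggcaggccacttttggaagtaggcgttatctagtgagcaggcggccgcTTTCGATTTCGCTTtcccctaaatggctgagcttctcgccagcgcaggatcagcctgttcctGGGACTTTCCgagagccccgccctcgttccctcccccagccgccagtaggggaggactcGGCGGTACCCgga
TAPBP: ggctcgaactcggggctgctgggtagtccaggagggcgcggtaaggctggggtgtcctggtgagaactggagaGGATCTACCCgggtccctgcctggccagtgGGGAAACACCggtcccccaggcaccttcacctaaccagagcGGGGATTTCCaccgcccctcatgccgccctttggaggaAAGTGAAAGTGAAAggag

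The IRF core was found in 7 of the 8 promoters and in 16.1% of 35091 RefSeq promoter windows of the same length. The NF-kB pattern was in 7 of the 8 and in 49.5% of all windows, TGACGC in 3 of the 8 and in 6.7%, and CCAAT in 5 of the 8 and in 28%. The HLA-B and HLA-C windows were identical at 87.7% of aligned positions, and the HLA-F window was identical to them at 80.8% and 80.2%. HLA-B and HLA-C held all 4 motifs in this window, whereas HLA-F held the IRF core and CCAAT but not the NF-kB pattern or TGACGC. The ERAP1 window had no IRF core. A match describes the letters in this window and does not show binding.

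The libraries held 28077305 to 32532669 recovered reads on the listed genes in the siRNA group and 37087203 to 43512175 in the NC group. Replicates 1 and 2 and replicates 3 and 4 formed pairs in both groups, weakly in the siRNA libraries and strongly in the NC libraries. The chi-square of read counts over its degrees of freedom was 11.3 between siRNA replicates 1 and 2 and 8.94 between siRNA replicates 3 and 4. Between the siRNA pairs it was 17.5 to 25.6. It was 64.8 between NC replicates 1 and 2 and 55.6 between NC replicates 3 and 4. It was 322 to 446 between the NC pairs. Each result on the 9 genes was therefore also computed without either NC pair. PTK2, the gene that hosts the silenced circular RNA, had values of 209.6, 216.8, 219.4 and 204.3 in siRNA replicates 1 to 4 and of 178.3, 226.9, 174.8 and 160.8 in NC replicates 1 to 4, a log2 change of 0.21 ± 0.11 (SE) that did not pass with all 8 libraries (limma adjusted p = 0.167). Without NC replicate 2 it passed (log2 change 0.31, limma adjusted p = 0.0154). The PTK2 change depended on the NC pair, at 0.34 with NC replicates 1 and 2 left out (limma adjusted p = 0.00164) and 0.079 with the other pair left out (limma adjusted p = 0.510). Poly(A) selection keeps the linear transcript, so circPTK2 itself was not measured by these values. Hepatocyte and hepatocellular carcinoma markers were present, 12 of 15 in the table, among them ALB, HNF4A, KRT8 and KRT18. The summed hepatocyte list was 2774 to 2843 in siRNA libraries and 3053 to 5746 in NC libraries, and its part in the results below was not tested. KRT8 and KRT18 made up most of that sum. KRT8, at 1517 ± 35.2 in siRNA cells and 3101 ± 1271 in NC cells (SD, n = 4 each), made up most of the gap. Within the list ALB, SERPINA1 and HNF4A were called higher, and KRT8, FGB, APOB, TF and AFP lower. Of 16 leukocyte markers 2 were in the table, CD68 and ITGAM, and the summed level of the list was 81.3 to 144.3 in siRNA libraries and 59.5 to 94.5 in NC libraries. Of 12 stromal and endothelial markers LUM and PECAM1 were in the table, at sums of 19.1 to 29.6 in siRNA libraries and 27.9 to 83.8 in NC libraries. Fewer cells of a type and less RNA per cell cannot be told apart in such bulk samples.

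HLA-B, HLA-C, HLA-E, TAP1 and ERAP1 rose in the siRNA libraries, and B2M and TAPBP fell. HLA-F and TAP2 did not pass the test. Thus 5 of the 9 genes were called higher, where 21.7% of all tested genes were, and 2 of the 9 were called lower, where 20.8% were (42.5% in either direction). Values are reads divided by a constant for each library, and a call is a limma adjusted p under 0.05 over all 11812 genes. The siRNA and NC values did not overlap for the same 7 genes, 5 with the siRNA libraries higher (22.4% of all genes) and 2 with them lower (20.9%), against 43.3% of all genes in either direction. The same 7 were called by edgeR and by DESeq2, which called 42.3% (20.4% higher, 22.0% lower) and 48.2% (22.7% higher, 25.5% lower) of all genes. With NC replicates 1 and 2 left out 5 were called higher and 2 lower, where 34% and 32.1% of all genes were (66.1% together). With NC replicates 3 and 4 left out TAP2 was called too, so that 6 were higher and 2 lower, where 30.2% and 27.7% of all genes were (57.9% together). The median log2 change of the 9 genes was 0.50, against 0.01 over all genes tested. The genes were chosen with earlier results of these data known, so these counts describe them and test nothing.

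**Figure D1:**
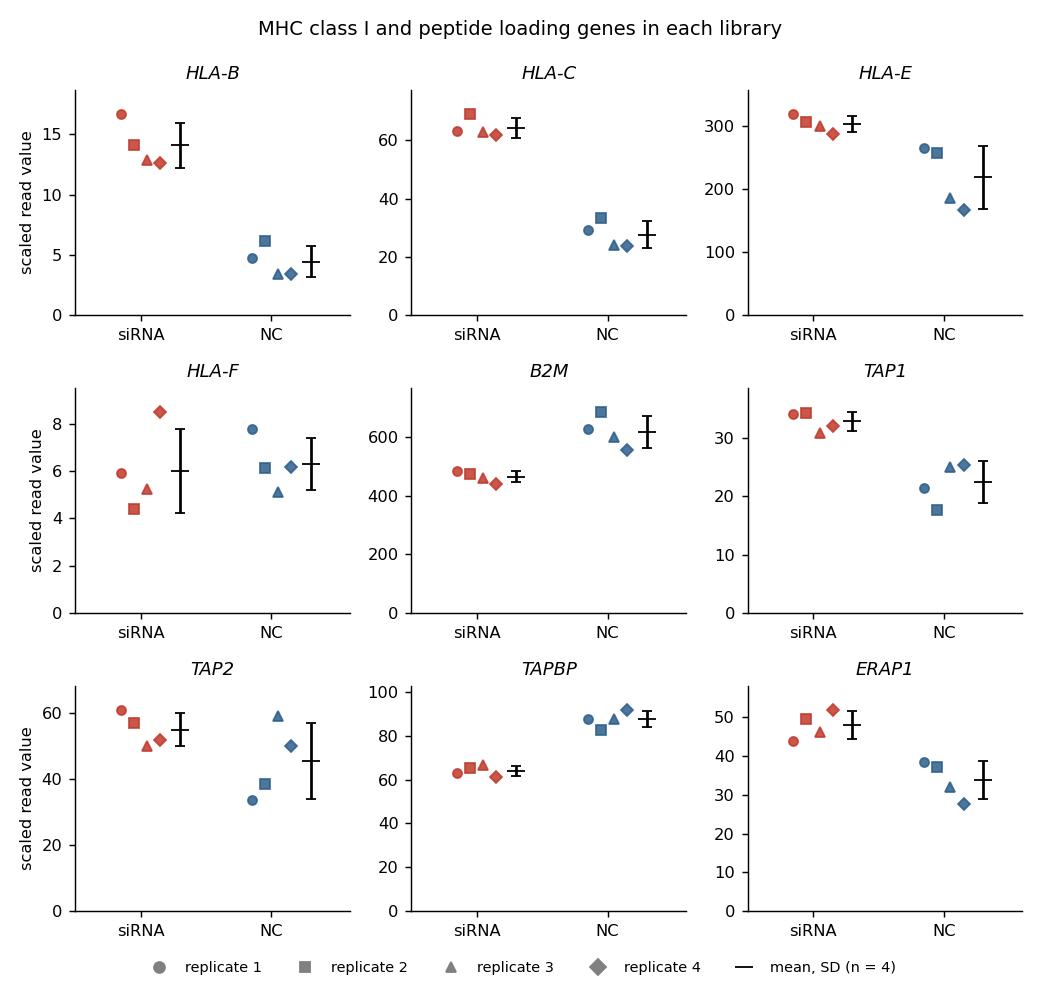
Scaled read values (linear axes from 0) of the 9 genes, with siRNA libraries on the left of each panel and NC libraries on the right. Points are libraries, with a marker shape per replicate number, and bars are means with SDs over 4 libraries. HLA-B and HLA-C show the widest gaps between the groups, and in TAP2 and HLA-F the groups overlap.

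HLA-B encodes a classical heavy chain that presents peptides to CD8+ T cells. Its value was 16.7, 14.1, 12.9 and 12.7 in siRNA replicates 1 to 4, against 4.79, 6.16, 3.42 and 3.45 in NC replicates 1 to 4. The lowest siRNA library was thus above the highest NC library. The means were 14.1 ± 1.86 in siRNA cells and 4.45 ± 1.30 in NC cells (SD, n = 4 each), a 3.16-fold rise with a log2 change of 1.49 ± 0.19 (SE, limma adjusted p = 0.000406). The gene had 140 to 469 reads per library, fewer than HLA-C or HLA-E. It lies on chromosome 6 (GRCh38), on the minus strand, and its GENCODE v29 annotation from 31269491 to 31357188 includes a transcript that reaches into HLA-C, with which it shares 33 exon bases. Of its 1586 exon bases 405 overlap other genes, most of them a pseudogene on the opposite strand.

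HLA-C encodes the other classical heavy chain of the group and is also the main class I ligand of natural killer cell receptors of the KIR family. Its value was 63.3, 69.1, 62.8 and 61.7 in siRNA replicates 1 to 4, against 29.2, 33.5, 24.2 and 23.6 in NC replicates 1 to 4. All siRNA libraries were well above all NC libraries. The means were 64.2 ± 3.34 in siRNA cells and 27.6 ± 4.62 in NC cells (SD, n = 4 each), a 2.32-fold rise with a log2 change of 1.20 ± 0.13 (SE, limma adjusted p = 0.000166). The gene spans 31268749 to 31272130 of chromosome 6 on the minus strand. With either NC pair left out both genes still passed. HLA-B changed by 1.76 with NC replicates 1 and 2 left out and by 1.22 with NC replicates 3 and 4 left out on the log2 scale, and HLA-C by 1.39 and 1.01 (limma adjusted p at most 0.000125 for HLA-B and 1.49e-05 for HLA-C).

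HLA-E is a non-classical heavy chain that presents leader peptides of other class I chains to the NKG2A receptor of natural killer cells. Its value was 319.5, 306.2, 300.2 and 287.5 in siRNA replicates 1 to 4, against 265.6, 257.0, 185.7 and 166.3 in NC replicates 1 to 4. The groups did not overlap, but NC replicates 1 and 2 lay much nearer to the siRNA libraries than NC replicates 3 and 4 did. The means were 303.4 ± 13.3 in siRNA cells and 218.6 ± 49.98 in NC cells (SD, n = 4 each), a 1.39-fold rise with a log2 change of 0.50 ± 0.16 (SE, limma adjusted p = 0.0307). The call was lost when NC replicate 3 (adjusted p = 0.0718), NC replicate 4 (0.0570) or any single siRNA library (0.0582 to 0.0815) was left out. With NC replicates 1 and 2 left out it stood at 0.78 on the log2 scale (limma adjusted p = 6.29e-06), and with NC replicates 3 and 4 left out it was 0.21 (limma adjusted p = 0.0282). The gene spans 30489467 to 30494205 of chromosome 6.

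HLA-F, a non-classical heavy chain that can bind natural killer cell receptors without peptide, was the weakest of the 9 genes per exon length in the siRNA libraries. Its value was 5.91, 4.39, 5.24 and 8.50 in siRNA replicates 1 to 4, against 7.76, 6.13, 5.11 and 6.18 in NC replicates 1 to 4. The groups overlapped throughout. The log2 change was -0.078 ± 0.20 (SE, limma adjusted p = 0.778), with 135 to 295 reads per library. HLA-F spans 29722775 to 29738528 of chromosome 6, and 40.1% of its exon bases overlap AL645939.1 and RPL23AP1 on the opposite strand.

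Heavy chain genes resemble each other, so reads could be shared between them. No 150-base window of the longest protein-coding GENCODE transcript of HLA-B, HLA-C, HLA-E or HLA-F occurred in a transcript of another gene. Of 50-base windows, 2.54% in HLA-B, 6.71% in HLA-C, 5.13% in HLA-E and 1.70% in HLA-F did. The libraries were sequenced with paired-end reads of 150 bases before trimming. The alleles of HCCLM3 can differ from the reference genome at many bases, and the effect of this on read assignment was not tested.

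B2M, the light chain shared by all class I molecules, moved the opposite way to HLA-B and HLA-C. Its value was 484.7, 474.4, 460.5 and 439.0 in siRNA replicates 1 to 4, against 627.0, 684.7, 599.3 and 554.2 in NC replicates 1 to 4. Every siRNA library was below every NC library. The means were 464.7 ± 19.8 in siRNA cells and 616.3 ± 54.6 in NC cells (SD, n = 4 each), a ratio of 0.754 with a log2 change of -0.40 ± 0.09 (SE, limma adjusted p = 0.00710). It fell with NC replicates 1 and 2 left out (log2 change -0.31) and with NC replicates 3 and 4 left out (-0.50), with limma adjusted p of 0.00235 and 0.000329. B2M spans 44711487 to 44718877 of chromosome 15.

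**Figure D2:**
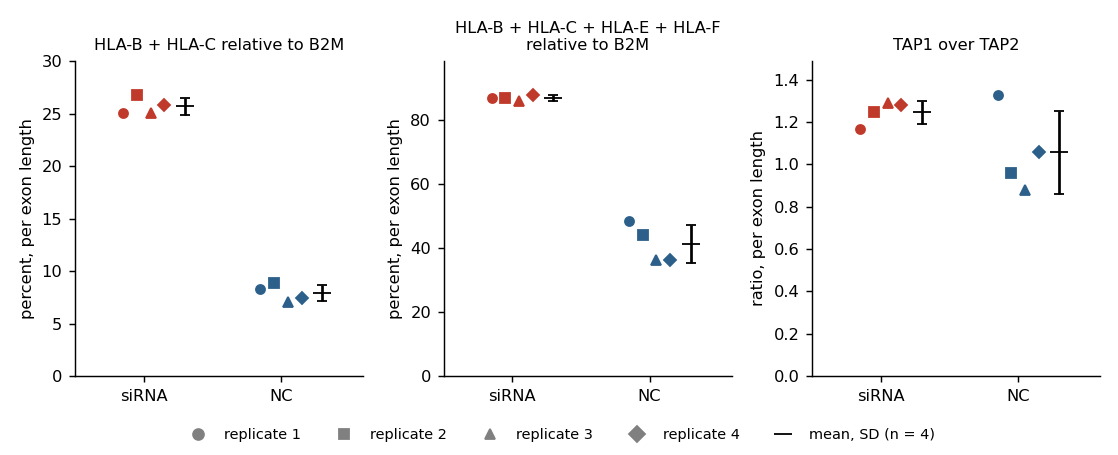
HLA-B plus HLA-C (left) and HLA-B, HLA-C, HLA-E and HLA-F together (middle) as a percent of B2M, and TAP1 over TAP2 (right), from levels per exon length in each library, on linear axes from 0, with siRNA libraries left of NC libraries and means with SDs over 4 libraries. HLA-B plus HLA-C stood at 25.1% to 26.8% of B2M in siRNA libraries and at 7.05% to 8.83% in NC libraries, while the TAP1 to TAP2 ratios of the groups overlapped.

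Opposite changes of heavy and light chain mRNA added up in their ratio. Per exon length, HLA-B and HLA-C together reached 25.1%, 26.8%, 25.1% and 25.8% of the B2M level in siRNA replicates 1 to 4, against 8.28%, 8.83%, 7.05% and 7.46% in NC replicates 1 to 4. The NC pairs differed little here beside the gap between the groups. With HLA-E and HLA-F added, the heavy chain sum was 86.9% ± 0.827 of B2M in siRNA libraries and 41.3% ± 6.05 in NC libraries (SD, n = 4 each). HLA-C exceeded HLA-B per exon length 4.71 ± 0.560 times in siRNA libraries and 6.50 ± 0.766 times in NC libraries. These ratios combine genes chosen with results known and are given as a description.

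TAP1 encodes a subunit of the transporter that moves peptides into the endoplasmic reticulum. Its value was 34.1, 34.1, 30.8 and 32.0 in siRNA replicates 1 to 4, against 21.4, 17.7, 24.9 and 25.4 in NC replicates 1 to 4. The groups did not overlap. The means were 32.7 ± 1.66 in siRNA cells and 22.4 ± 3.59 in NC cells (SD, n = 4 each), a 1.46-fold rise with a log2 change of 0.54 ± 0.13 (SE, limma adjusted p = 0.00954). It was 0.37 with NC replicates 1 and 2 left out and 0.72 with NC replicates 3 and 4 left out, and passed in both fits (limma adjusted p = 0.00601 and 0.000353). TAP1 spans 32845209 to 32853978 of chromosome 6, and 456 of its exon bases overlap the antisense gene PSMB8-AS1, whose reads could not be told apart if strand was not used.

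TAP2 encodes the partner subunit of the transporter. Its value was 61.0, 57.0, 49.9 and 51.9 in siRNA replicates 1 to 4, against 33.7, 38.5, 59.2 and 50.04 in NC replicates 1 to 4. NC replicates 1 and 2 were below all siRNA libraries, and NC replicates 3 and 4 were among them. The log2 change of 0.30 ± 0.17 (SE) did not pass (limma adjusted p = 0.197). It was 0.01 with NC replicates 1 and 2 left out (limma adjusted p = 0.944) and 0.59 with NC replicates 3 and 4 left out (limma adjusted p = 0.000973), and it passed without NC replicate 3 alone (log2 change 0.44, limma adjusted p = 0.0483). The TAP1 to TAP2 ratio per exon length was 1.17, 1.25, 1.29 and 1.28 in siRNA replicates 1 to 4 and 1.33, 0.959, 0.880 and 1.06 in NC replicates 1 to 4, with NC replicate 1 above the siRNA libraries. Of the 6175 exon bases of TAP2, 2064 overlap the same-strand gene AL669918.1.

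TAPBP encodes tapasin, which bridges TAP and the empty heavy chain and edits the bound peptide. Its value was 63.2, 65.2, 66.5 and 61.1 in siRNA replicates 1 to 4, against 87.7, 82.8, 87.6 and 91.8 in NC replicates 1 to 4. It had the smallest spread within groups of the 9 genes, relative to the mean, in both groups, and the NC pairs did not separate. The means were 64.0 ± 2.36 in siRNA cells and 87.5 ± 3.69 in NC cells (SD, n = 4 each), a ratio of 0.731 with a log2 change of -0.44 ± 0.08 (SE, limma adjusted p = 0.00239). The fall was -0.48 with NC replicates 1 and 2 left out and -0.41 with the other NC pair left out, both past the threshold (limma adjusted p = 0.000314 and 0.00156). The gene spans 33299694 to 33314387 of chromosome 6.

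ERAP1 encodes the aminopeptidase that trims peptides in the endoplasmic reticulum to the length class I molecules bind. Its value was 43.8, 49.6, 46.2 and 51.9 in siRNA replicates 1 to 4, against 38.4, 37.1, 32.0 and 27.6 in NC replicates 1 to 4. The groups did not overlap. The means were 47.9 ± 3.57 in siRNA cells and 33.8 ± 4.97 in NC cells (SD, n = 4 each), a 1.42-fold rise with a log2 change of 0.50 ± 0.12 (SE, limma adjusted p = 0.0119). It was 0.67 with NC replicates 1 and 2 left out and 0.33 with NC replicates 3 and 4 left out (limma adjusted p = 0.000201 and 0.0136). ERAP1 spans 96760810 to 96808100 of chromosome 5, away from the other genes, and 483 of its exon bases overlap CAST and AC008906.1.

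**Figure D3:**
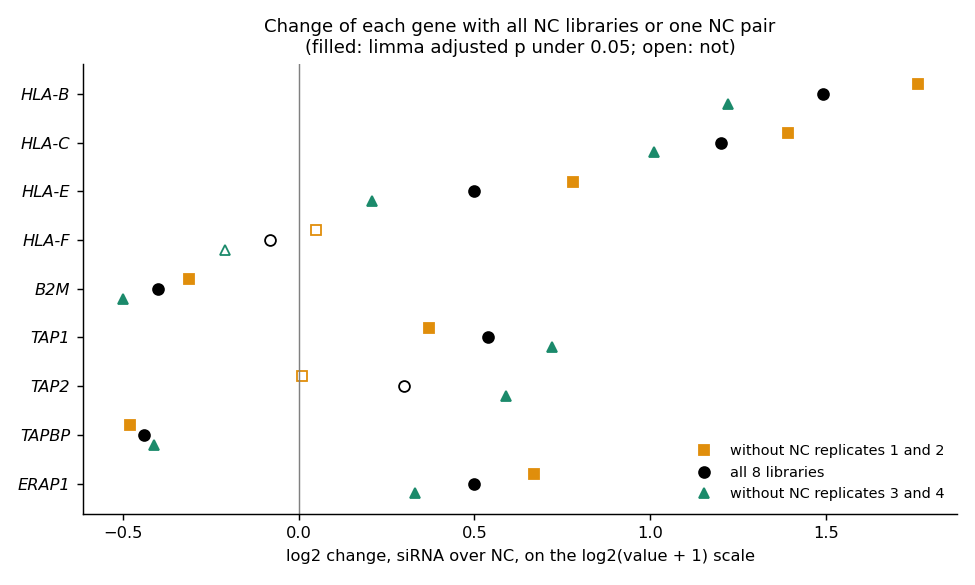
Log2 change of each gene, siRNA over NC, on the log2(value + 1) scale, with all 8 libraries (circles), with NC replicates 1 and 2 left out (squares) and with NC replicates 3 and 4 left out (triangles). Filled symbols passed a limma adjusted p of 0.05, as all 3 did for 7 genes, while TAP2 ran between 0.01 and 0.59 and HLA-F between -0.21 and 0.05.

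The order of the genes by level per exon length shifted in the middle and at the bottom. B2M was highest and HLA-E the next in both groups, at 195.4 and 116.6 per kb in siRNA libraries and at 259.2 and 84.1 per kb in NC libraries. In siRNA libraries HLA-C followed at 41.3 ± 2.15 per kb, above TAPBP at 15.3 ± 0.562 (SD, n = 4 each). In NC libraries TAPBP, at 20.9 ± 0.879, and HLA-C, at 17.8 ± 2.98, differed by about the SD of HLA-C. HLA-B was seventh of 9 in siRNA libraries at 8.88 ± 1.17 and within its spread of TAP2 at 8.90 ± 0.812. It was last of 9 in NC libraries at 2.81 ± 0.822, within its spread of HLA-F at 3.17 ± 0.550. Exon length is the union of the exons of all basic GENCODE transcripts, so these levels depend on which transcripts the cells use.

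The MHC region around these genes mostly went the other way. From 28 to 34 Mb of chromosome 6 (GRCh38), 111 other genes were tested, of which 65 fell and 3 rose, with a median log2 change of -0.57. Within 1 Mb of HLA-B, 39 of 64 other genes fell. Of all tested genes 20.8% were called lower and 21.7% higher. With NC replicates 1 and 2 left out the window had 77 lower and 10 higher of 109, and with NC replicates 3 and 4 left out it had 69 lower and 9 higher of 109. HLA-B, HLA-C, HLA-E and TAP1 thus rose in a window where most other genes fell, and TAPBP fell as 18 of the 28 other genes within 1 Mb of it did.

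**Figure D4:**
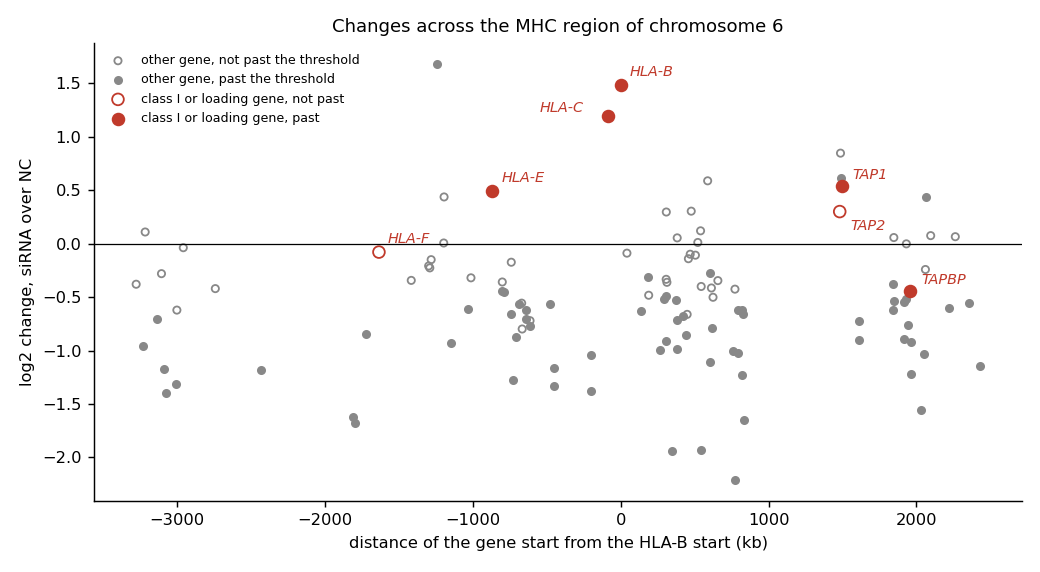
Log2 change, siRNA over NC, of every tested gene in the MHC window against the distance of its start from the start of HLA-B in kb. Red points are the class I and peptide loading genes, grey points the 111 others, and filled points passed a limma adjusted p of 0.05. Most grey points lie below 0, with HLA-B and HLA-C near the top.

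Among the other genes of the window that rose were TRIM31, an E3 ubiquitin ligase gene, and the immunoproteasome gene PSMB8. TRIM31 averaged 50.7 ± 4.60 in siRNA cells and 16.7 ± 8.46 in NC cells (SD, n = 4 each), a log2 change of 1.69 (limma adjusted p = 0.00442). Among called genes with a mean of at least 5, the largest decreases were in ATF6B, a membrane-bound transcription factor gene of the stress response, in ABHD16A, a lipid hydrolase gene, in EHMT2, which encodes the histone methyltransferase G9a, and in UBD, an interferon-inducible ubiquitin-like modifier. ATF6B averaged 13.1 ± 1.59 in siRNA cells and 64.2 ± 8.57 in NC cells, a log2 change of -2.21 (SD, n = 4 each, limma adjusted p = 1.3e-05). The changes of ABHD16A, EHMT2 and UBD were -1.94, -1.93 and -1.67 on the log2 scale (limma adjusted p = 0.00752, 0.0128 and 0.00564). EHMT2 had 31.6, 22.4, 94.7 and 120.1 in NC replicates 1 to 4, so its size differed between the NC pairs. ABHD16A did not pass with NC replicates 3 and 4 left out (limma adjusted p = 0.0509). B2M likewise sits on a chromosome where decreases prevailed: of 392 other genes tested on chromosome 15, 195 fell and 20 rose, with a median log2 change of -0.47. The part of these regional shifts in the values of B2M and TAPBP was not tested.

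Partners of the loading complex did not move as a block. Of 12 listed chaperones, trimming enzymes and glycan control enzymes 2 rose and 1 fell, a share of 25.0% called against 42.5% of all genes. PDIA3, the disulfide isomerase joined to tapasin, fell to 283.7 ± 11.5 in siRNA cells, against 406.2 ± 54.9 in NC cells (SD, n = 4 each, log2 change -0.51, limma adjusted p = 0.00561). It lies on chromosome 15, as B2M does. LNPEP, an aminopeptidase of endosomal cross-presentation and a neighbour of ERAP1, rose 2.09-fold (log2 change 1.05, limma adjusted p = 0.00106). TAPBPL, the tapasin relative TAPBPR, rose 1.53-fold (log2 change 0.57, limma adjusted p = 0.02), but not without siRNA replicate 4 (limma adjusted p = 0.0591) or with library totals alone (limma adjusted p = 0.0535).

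Among proteasome genes, 2 of 6 immunoproteasome and activator genes rose (33.3% called), and so did 2 of 5 constitutive counterparts (40.0% called). Of all genes 42.5% were called in either direction and 21.7% higher. PSMB8, a catalytic subunit encoded beside TAP1, averaged 24.4 ± 1.81 in siRNA cells and 15.8 ± 3.44 in NC cells (SD, n = 4 each, log2 change 0.62, limma adjusted p = 0.0154). PSMB10, another inducible catalytic subunit, rose 1.36-fold (limma adjusted p = 0.0312). That call was lost without NC replicate 1 or 4 or any single siRNA library (limma adjusted p = 0.0578 to 0.0848). PSMB9, whose gene shares a bidirectional promoter with TAP1, had 3.56, 2.38, 2.81 and 3.47 in siRNA replicates 1 to 4 and 0.684, 0.269, 2.60 and 2.24 in NC replicates 1 to 4. NC replicates 1 and 2 were far below the rest. It did not pass (log2 change 0.85, limma adjusted p = 0.0680), but it passed without NC replicate 3 (1.08, adjusted p = 0.0269), NC replicate 4 (1.03, adjusted p = 0.0421) or both (1.46, adjusted p = 0.000250). PSMB9 stood at 0.58 when NC replicate 2 was omitted (limma adjusted p = 0.119) and at 0.24 with both NC replicates 1 and 2 left out (limma adjusted p = 0.291). The activator gene PSME3 rose 1.37-fold (limma adjusted p = 0.00658) and the constitutive catalytic gene PSMB6 1.23-fold (limma adjusted p = 0.0236). PSMB6 lost its call when siRNA replicate 1 or 2 was left out (limma adjusted p = 0.0753 and 0.0778).

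Of 13 tested transcription factors that act at class I promoters, 4 rose and 1 fell, a share of 38.5% called. The share over all genes was 42.5%, with 21.7% higher and 20.8% lower. NLRC5, the class I transactivator, had 15.5, 13.7, 23.8 and 25.8 in siRNA replicates 1 to 4 and 29.6, 16.1, 13.8 and 19.4 in NC replicates 1 to 4. The groups overlapped entirely (log2 change 0.0072 ± 0.27, SE, limma adjusted p = 0.986). NFYB, a subunit of the CCAAT-binding factor, rose 1.80-fold and IRF2 1.54-fold, while NFYA, another subunit of that factor, averaged 56.9 ± 4.98 in siRNA cells and 98.5 ± 5.81 in NC cells (SD, n = 4 each), a log2 change of -0.78. ATF1 rose 1.46-fold. For these 4 genes limma gave adjusted p from 0.000342 to 0.00760. IRF1, an interferon-induced activator of class I promoters, had 65.4, 67.5, 58.5 and 60.3 in siRNA replicates 1 to 4 and 45.3, 49.99, 20.9 and 18.8 in NC replicates 1 to 4. Its log2 change of 1.00 ± 0.31 (SE, limma adjusted p = 0.0271) lost its call when NC replicate 3 or 4 or any single siRNA library was left out (limma adjusted p = 0.0515 to 0.0698), with log2 changes of 0.82 and 0.78 without NC replicate 3 and NC replicate 4 and of 0.97 to 1.04 without single siRNA libraries. The change of IRF1 was 1.61 with NC replicates 1 and 2 left out (limma adjusted p = 2.46e-07) and 0.39 with NC replicates 3 and 4 left out (limma adjusted p = 0.00474), so its size depended on the NC pair.

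**Figure D5:**
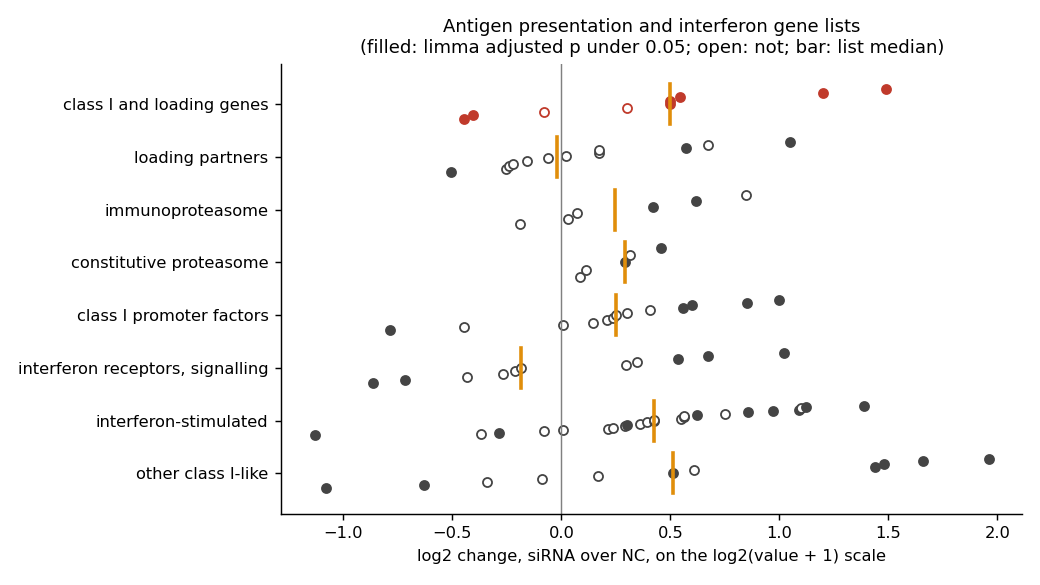
Log2 change, siRNA over NC, of every tested gene in 7 lists of antigen presentation and interferon genes (class II genes and cell type markers are not drawn), with the 9 class I and loading genes in the top row. Filled points passed a limma adjusted p of 0.05 and the bar is the list median, which ran, among the lists drawn, from -0.19 for interferon receptors and signalling to 0.51 for other class I-like genes.

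Counted in either direction, interferon genes were called about as often as genes in general. Of 11 tested receptor and signalling genes 3 rose and 2 fell (45.5% called). Of 24 interferon-stimulated genes outside antigen presentation 9 rose and 2 fell (45.8% called). Over all genes 42.5% were called, 21.7% higher and 20.8% lower. Rises thus prevailed in the interferon-stimulated list, whose median log2 change was 0.43, against 0.01 over all genes. Some genes of this list differed between the NC pairs. OAS1, not called, had 25.4, 22.7, 85.7 and 101.2 in NC replicates 1 to 4 and 100.6 to 107.7 in siRNA libraries. OAS3, not called either, had 57.6, 52.9, 188.0 and 213.6 in NC replicates 1 to 4 and 173.1 to 180.9 in siRNA libraries. ISG15 did not differ so, at 9.86 to 13.7 in NC libraries. The list median was not computed without an NC pair. The median of the receptor and signalling list was -0.19. The kinase gene JAK1 averaged 392.8 ± 42.7 in siRNA cells and 199.2 ± 58.8 in NC cells (SD, n = 4 each, log2 change 1.02, limma adjusted p = 0.00409). JAK1 had 252.0, 248.0, 144.3 and 152.3 in NC replicates 1 to 4, so its size differed between the NC pairs. The receptor gene IFNAR1 rose 1.59-fold and the phosphatase gene PTPN2 1.45-fold, while STAT2 was at a ratio of 0.522 (log2 change -0.87, limma adjusted p = 0.00560). ISG15, a ubiquitin-like modifier, rose 2.73-fold, IFI27 2.40-fold and the ubiquitin ligase gene DTX3L 1.80-fold. LGALS3BP, a secreted glycoprotein gene, was at a ratio of 0.460 (log2 change -1.13, limma adjusted p = 0.000233).

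Of 11 tested genes for other class I and class I-like molecules, 5 rose and 2 fell (63.6% called, against 42.5% of all genes), with a median log2 change of 0.51, against 0.01 over all genes. ULBP2, a ligand of the activating receptor NKG2D on natural killer and T cells, averaged 6.54 ± 0.683 in siRNA cells and 0.945 ± 0.268 in NC cells (SD, n = 4 each), a log2 change of 1.96 (limma adjusted p = 3.69e-05). MR1, which presents vitamin B metabolites to MAIT cells, rose 3.54-fold (limma adjusted p = 0.00132), and AZGP1, a secreted class I-like protein, 3.18-fold (limma adjusted p = 0.000854). MICB, another NKG2D ligand and a gene of the MHC region, averaged 16.7 ± 1.29 in siRNA cells and 27.2 ± 7.57 in NC cells (log2 change -0.63, limma adjusted p = 0.0235). Its call was lost without NC replicate 4 or siRNA replicate 1, 3 or 4 (limma adjusted p = 0.0536 to 0.0642). Of 13 class II genes 3 were tested, and HLA-DMA, a class II loading factor, was the 1 that changed, at 1.10 ± 0.237 in siRNA cells and 2.97 ± 0.882 in NC cells (SD, n = 4 each, log2 change -0.90, limma adjusted p = 0.00492).

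The genes whose profile over the 8 libraries lay nearest to the mean profile of HLA-B, HLA-C, HLA-E and HLA-F were RAD23B, GRINA, HRAS, CFL2 and NUB1, at root mean square differences of 0.0592 to 0.0694 in centred log2(value + 1). These heavy chain genes changed by 1.49, 1.20, 0.50 and -0.078 on the log2 scale, so their mean profile is an average of unlike genes. The median of the 10252 genes compared, those with a mean of at least 5 and no clone or LOC name, was 0.498. The nearest genes lie below that median by the way they were picked. Nearest to B2M were SFSWAP, HNRNPL, CTDSP1, YME1L1 and SAFB, at 0.0379 to 0.0446, with a median of 0.380. None of these 10 genes lies on chromosome 6 or 15.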

How the data were processed

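Poly(A)-selected RNA of HCCLM3 cells was sequenced in 4 siRNA and 4 NC libraries. The values the authors deposited are scaled read signal: the column names say counts, yet no column is whole, and within each column 100% of values are whole multiples of a single step (within 0.02 reads). The values alone show this division by a per-library constant, and reads were recovered by undoing it. In 4 columns the smallest value was 2 steps. The submitters' processing notes name hg38, HISAT2, HTSeq 0.12.4, Trimmomatic, FastQC, edgeR and DESeq2, with no roles, and the use of strand is not stated in them. Each listed gene was above 1 in 3 or more libraries, so weaker genes are not analysed here.

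Because the values are normalized, limma 3.58.1 (R 4.3.3; trend and robust; two-sided) was fitted to log2(value + 1), keeping 11812 genes that reached 1 in 4 libraries or more. Group was the single term, and p-values were adjusted by Benjamini-Hochberg over all genes. The scale understates changes of low genes, and folds are ratios of group means. The fit was tested on simulated data with a single spread for all libraries and no NC pairs. There it called 74.6% of 1.5-fold changes and 100% of 2-fold and 4-fold changes, with 16 false calls among 11600 genes. Its behaviour with paired NC libraries, as found here, was not tested. The 9 genes and all lists were chosen with earlier results of these data known. Genes named are the 9, PTK2, NLRC5, IRF1, PSMB8, PSMB9, up to 4 called genes per list with the smallest p, the 5 largest changes among called genes of the MHC window with a mean of at least 5, and the 5 nearest profiles; some items are not reported here. Other settings were edgeR 4.0.16 and DESeq2 1.42.0 on recovered reads, other scalings, pseudocounts, filters and thresholds, a block on replicate number, and fits that omit single libraries or an NC pair. Positions and exon lengths came from GENCODE v29 (GRCh38), which held 11806 of 11818 symbols.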

Additional observations from a re-analysis of the deposited data

Results flagged for a closer look

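Among 114 groups of 4 libraries examined, those of 57 named genes, 4 had a single library far from the other 3, by Dixon's gap over range at the 95% level. Chance flags about 1 group in 20. None was a value of the 9 class I and loading genes. PSMB8 was lowest in siRNA replicate 2 at 21.7 (gap over range 0.848). IFNAR1 was lowest in siRNA replicate 4 at 71.3 (0.935). TF, the transferrin gene, was lowest in NC replicate 3 at 13.5 (0.898). ABHD16A was lowest in siRNA replicate 4 at 0.542 (0.889), where the other siRNA libraries had 4.95, 5.50 and 5.27.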

How the results depend on the processing

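HLA-B, HLA-C, B2M, TAP1 and TAPBP kept their direction and their call in all 20 alternatives run, with log2 changes of 1.02 to 1.76, 1.01 to 1.39, -0.50 to -0.31, 0.37 to 0.72 and -0.48 to -0.41. ERAP1 did so in 19 of 20, the exception being a threshold of 0.01, and HLA-E in 13 of 20. Among the 20, scaling the recovered reads by the TMM method of edgeR gave the main fit again. Its changes and adjusted p were the same for the 9 genes, with 5015 calls over all genes, so it is no separate check. The number of the 9 genes called was 5 at a threshold of 0.01 and 6 to 8 in the others. Over all genes 7672 were called without NC replicates 1 and 2, against 5015 with all libraries, and 3034 at a threshold of 0.01, where 22 in place of 36 list genes were called. HLA-F turned to 0.049 when NC replicates 1 and 2 were omitted, and ran from -0.23 to 0.037 when single libraries were (0.014 without NC replicate 1). NLRC5 turned to -0.014 with DESeq2, -0.0016 with edgeR, -0.028 with library totals alone and -0.19 when NC replicates 3 and 4 were omitted, and ran from -0.14 to 0.21 over single libraries (-0.068, -0.096 and -0.13 among them). Leaving out single libraries gave 3699 to 5459 calls over all genes, 27 to 40 in the lists and 60 to 73 in the MHC window, where all libraries gave 68. The cause of these shifts was not tested.

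The replicate numbers are not tied by the labels to a shared day or passage, and libraries of the same number did not deviate together: the correlations of deviations from the group means were -0.0634, 0.166, -0.0712 and 0.182 for numbers 1 to 4, and not every siRNA library correlated best with its own number. With a replicate block 4546 genes were called, the same 7 of the 9 genes passed, and PSMB10 and PSMB6 did not (limma adjusted p = 0.0795 and 0.0707). HLA-B and HLA-F, with 135 to 469 reads per library, have the least depth of the 9 genes.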

Other observations

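Markers of hepatocytes changed in both directions, 3 higher and 5 lower of 12 tested (66.7% called). Of all genes 42.5% were called, 21.7% higher and 20.8% lower. The albumin gene ALB averaged 32.0 ± 6.05 in siRNA cells and 9.20 ± 1.18 in NC cells, and the alpha-1 antitrypsin gene SERPINA1 5.49 ± 1.30 in siRNA cells and 0.116 ± 0.0884 in NC cells (SD, n = 4 each). The transferrin gene TF averaged 5.86 ± 0.710 in siRNA cells and 20.4 ± 4.62 in NC cells. The fibrinogen gene FGB averaged 0.578 ± 0.0700 in siRNA cells and 23.7 ± 12.3 in NC cells. The endothelial marker PECAM1 averaged 3.96 ± 0.735 in siRNA cells and 13.0 ± 5.11 in NC cells. All 5 passed (limma adjusted p = 2.53e-05 to 0.00248).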
